A study of Mus musculus with 3 samples.

Results

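A set of 10 genes that hold mineral back, promote its deposition, or mark bone and cartilage cells were examined in sorted mouse leptomeningeal cells. They were Mgp, Enpp1, Alpl, Phospho1, Runx2, Sp7, Ibsp, Dmp1, Sox9 and Acan, 10 of the 46983 gene rows of the count table. The members were chosen by name, and partly by the measured level of Mgp, which was already known to be among the most abundant transcripts of these libraries. Levels are therefore given as descriptions with no test, and only the spread between libraries was tested. The libraries came from the pia-enriched fraction of vehicle-treated mice: leptomeninges, the pia and arachnoid membranes around the brain, were dissected out, dissociated and sorted by flow cytometry before bulk RNA sequencing. There were 3 libraries, all of 1 group, so no condition could be compared. The gate of the sort, the strain, sex and age of the mice, the agent for which the vehicle was the control, and whether a library held 1 animal or a pool were not given in the sources used here. Measures of spread and p-values therefore describe these 3 samples, whose differences may be technical.

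Mineral deposition in connective tissue depends on the balance of phosphate and its inhibitor pyrophosphate. ENPP1 makes extracellular pyrophosphate and the alkaline phosphatase ALPL destroys it, while matrix Gla protein, encoded by Mgp, is a small secreted protein that keeps arteries and cartilage from calcifying once its glutamates have been carboxylated in a vitamin K-dependent step. RUNX2 and SP7 (osterix) direct the osteoblast lineage, IBSP and DMP1 are acidic proteins of mineralized bone matrix, and SOX9 directs cartilage formation, in which aggrecan (Acan) is the main proteoglycan. The question was whether abundant Mgp came together with transcripts of bone or of cartilage.

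The libraries held 21002860 to 28704952 gene counts. Library 1 stood apart: over the genes that passed the filter and had an annotated length, its Pearson correlation with the other libraries on the log2 scale was 0.933 and 0.941, against 0.975 between libraries 2 and 3. These correlations are across genes, which are not independent replicates. Levels are given as CPM, a gene's counts as a share of all gene counts of the library, on a fixed scale. The 6 fibroblast markers (Col1a1, Col1a2, Col3a1, Dcn, Lum and Pdgfra) all exceeded 100 CPM. They summed to between 23467 and 29100 CPM, so fibroblast transcripts were abundant. No list of pia or arachnoid markers was examined, so these values do not identify the tissue. The most abundant of the 6 fibroblast markers were Col1a2 (11497 ± 935 CPM) and Col1a1 (5099 ± 853 CPM). Markers of choroid plexus epithelium summed to 71.4 CPM in library 1 and to 1761 and 2715 CPM in libraries 2 and 3, led by Ttr (32.6, 1594 and 2530 CPM) and Clic6 (13.5, 43.3 and 41.3 CPM). Those of macrophages and microglia summed to 11.1, 139 and 396 CPM, led by C1qb (1.62, 39.2 and 130.1 CPM) and C1qa (2.02, 31.4 and 90.5 CPM). Their part in the differences between libraries described here was not tested. In bulk RNA, fewer cells of a type and less RNA per cell cannot be told apart.

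**Figure D1:**
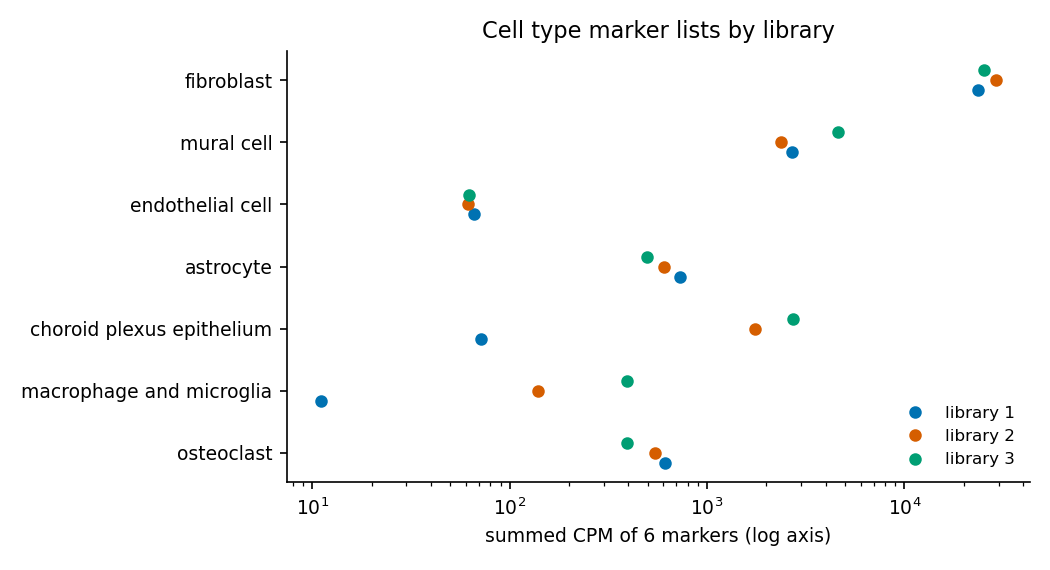
Summed CPM of 6 marker genes for each of 7 cell types, on a log axis, with 1 point per library. Fibroblast markers lie between 23467 and 29100 CPM in the 3 libraries, endothelial markers between 61.5 and 65.9 CPM, and library 1 lies lowest for choroid plexus and macrophage markers.

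Mgp (ENSMUSG00000030218.2, chromosome 6, 136872435 to 136875823, minus strand, GENCODE M21 on GRCm38) dominated the set. It stood at 11816, 5049 and 8665 CPM in libraries 1, 2 and 3, a mean of 8510.0 ± 3387 CPM (SD, n = 3). Library 1 was highest and library 2 lowest, by 2.34-fold. Among all gene rows Mgp had rank 4, 12 and 6 in libraries 1, 2 and 3. Divided by exon length (1187 bases) and scaled to a fixed total in each library, a unit called TPM, it came to 27204, 14332 and 23031 TPM, and its mean had rank 2 of all genes. The spread was tested against that of genes of like abundance, and Mgp did not pass (edgeR goodness of fit, unadjusted p = 0.182, adjusted p = 0.9997). Library 1 exceeded the mean of the others by 0.84 on the log2 scale, where the trend of all genes with GC content and length was 0.23 for a gene of this composition. Without library 1 the mean was 7062 CPM.

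The 5 genes whose log2(CPM + 1) lay nearest to that of Mgp over the 3 libraries, by Euclidean distance, were Actb at a distance of 0.63, Mfap4 at 0.93, Igfbp5 at 0.996, Cst3 at 1.17 and Sparc at 1.23. The distance reflects level as well as spread. Mfap4 encodes a protein of elastic fibres, Igfbp5 a secreted protein that binds insulin-like growth factors, Cst3 the protease inhibitor cystatin C and Actb cytoplasmic actin. Sparc, which encodes the collagen-binding protein osteonectin, was lowest in library 3 (8730 CPM) and highest in library 2 (11754 CPM), where Mgp was lowest.

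Enpp1 (ENSMUSG00000037370.13, chromosome 10, 24637914 to 24712159), the source of pyrophosphate, was far less abundant. It stood at 17.9, 33.4 and 61.1 CPM, a mean of 37.5 ± 21.9 CPM, lowest in library 1 and highest in library 3. Its unadjusted p was 0.0371 and its adjusted p 0.630 (edgeR goodness of fit). On the log2 scale library 1 differed from the mean of the others by -1.33, where the trend with GC content and length was -0.49. Of the 8 genes on the list of mineralization inhibitors, 6 reached a mean of 1 CPM, which 30.2% of all gene rows did, and 2 reached 100 CPM, which 3.9% did. Spp1, which encodes osteopontin, an acidic phosphoprotein that slows crystal growth, was at 102, 141 and 203 CPM. Nt5e, whose enzyme makes adenosine from AMP, was at 25.6 ± 12.1 CPM and Ank, which encodes a membrane protein needed for pyrophosphate release, at 15.9 ± 6.87 CPM. Abcc6 was at 2.02 ± 0.537 CPM and Ucma, which encodes another Gla protein of cartilage, at 0.320 ± 0.215 CPM. Ahsg, the gene of the liver protein fetuin-A, had no count in any library, which allows up to 0.152, 0.101 and 0.116 CPM (3 counts) in libraries 1, 2 and 3.

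Enzymes that process Gla and phosphorylated matrix proteins were present. Ggcx, which encodes the carboxylase that converts glutamate to Gla, stood at 212, 192 and 165 CPM, and Vkorc1, whose enzyme recycles vitamin K, at 174, 131 and 129 CPM. Gm21974 on the same strand shares 47.7% of the exonic bases of Vkorc1 in GENCODE M21, so the Vkorc1 level is uncertain. The related Vkorc1l1 was at 19.5 ± 7.12 CPM and the secretory kinase gene Fam20c at 9.87 ± 1.37 CPM. All 4 passed the filter and 0 were called variable, where 0.437% of all tested genes were called, so nothing is read from this count.

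Alpl (ENSMUSG00000028766.10, chromosome 4, 137741733 to 137796384) was the member nearest to Mgp in level and the most abundant gene on the list of mineralization promoters. It stood at 4871, 3350 and 2569 CPM, a mean of 3597 ± 1171 CPM (SD, n = 3), and ranked between 17 and 28 in the single libraries. Library 1 was highest and library 3 lowest, by 1.90-fold, which did not pass the test (edgeR goodness of fit, unadjusted p = 0.355, adjusted p = 0.9997). On the CPM scale Mgp exceeded Alpl 2.43-, 1.51- and 3.37-fold in libraries 1, 2 and 3. Per exon length, with 4033 bases for Alpl, the ratio was 8.24, 5.12 and 11.5. Alkaline phosphatase is also known from brain endothelium. The 6 endothelial markers together summed to between 61.5 and 65.9 CPM, led by Cdh5 at 28.9 ± 7.44 CPM and Pecam1 at 14.4 ± 3.66 CPM. The part of endothelial cells in the Alpl level was not tested. Set beside Enpp1, which acts against it, Alpl had a mean of 2703 ± 651 TPM against 11.5 ± 7.03 TPM.

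Phospho1 (ENSMUSG00000050860.6, chromosome 11, 95824499 to 95832140), which encodes the phosphatase that releases phosphate inside matrix vesicles, had 1, 3 and 5 counts. In GENCODE M21, 84.2% of its exonic bases are shared with Abi3 on the opposite strand and 89.6% with Zfp652 on the same strand. Reads there can be set aside as ambiguous, so its level was not resolved by this table. It was the only member that failed the filter on low counts. The phosphate transporter genes Slc20a2 (190 ± 20.6 CPM) and Slc20a1 (54.8 ± 7.41 CPM) were well above it, and Smpd3, which encodes a sphingomyelinase needed for bone mineral, was at 4.83 ± 0.272 CPM. Smpd3 stood at 4.55, 4.84 and 5.09 CPM, the narrowest spread on the list of promoters.

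**Figure D2:**
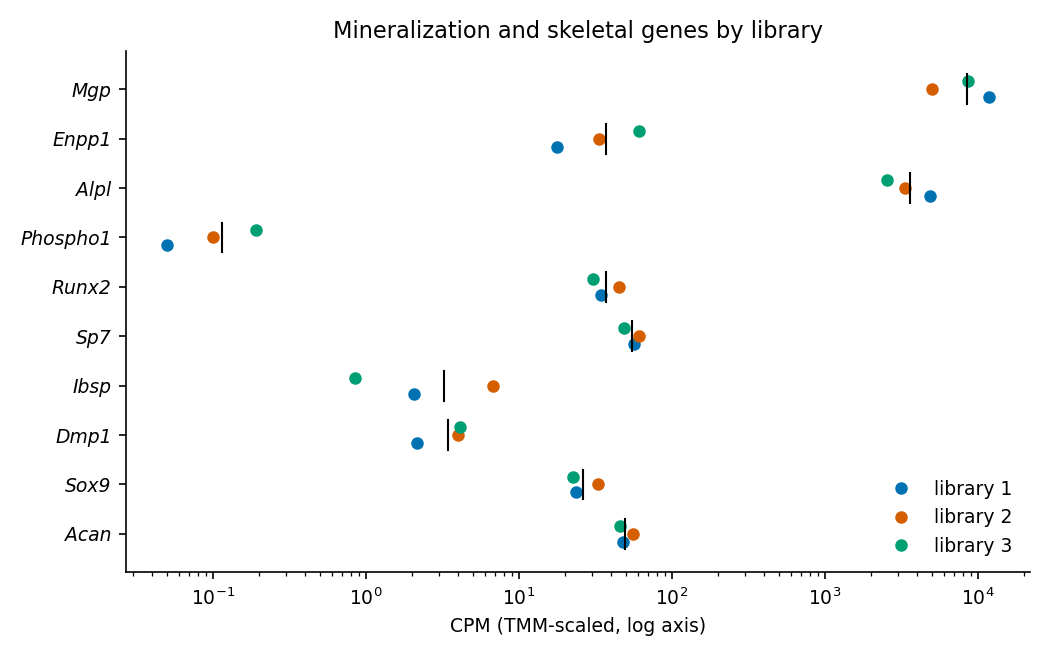
CPM of the 10 members on a log axis, with 1 point per library and a black bar at the mean of the 3 libraries. Mgp (8510.0 CPM) and Alpl (3597 CPM) lie far above the other 8 genes, whose means are at most 55.4 CPM, and Ibsp shows the widest relative spread among members past the filter.

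Both osteoblast regulators were detected in every library at moderate and even levels. Sp7 (ENSMUSG00000060284.6, chromosome 15, 102356606 to 102367182) stood at 56.4, 61.4 and 48.5 CPM, a mean of 55.4 ± 6.46 CPM. Runx2 (ENSMUSG00000039153.16, chromosome 17, 44495987 to 44814797) stood at 34.8, 45.4 and 30.8 CPM, a mean of 37.0 ± 7.55 CPM. For each of them library 2 was highest and library 3 lowest, by 1.26-fold for Sp7 and 1.47-fold for Runx2. An antisense gene, Runx2os1, shares 5.9% of the exonic bases of Runx2, and the strand setting of the counting was not given in the sources used here. All 8 genes on the list of osteoblast transcription factors reached a mean of 1 CPM, against 30.2% of all gene rows. Of these 8, 0 were called variable, against 0.437% of all tested genes. Atf4, a stress-response factor that most cells express, was at 354 ± 131 CPM. Cbfb, the partner of RUNX proteins, was at 19.7 ± 11.3 CPM, Dlx5 at 16.3 ± 10.1 CPM and Msx2 at 15.5 ± 2.77 CPM. Dlx3 was at 1.18 ± 0.558 CPM.

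The genes on the bone matrix list were at the lower end, which depends on how the list was drawn. Spp1 (148 ± 51.1 CPM) and Col1a1 (5099 ± 853 CPM) stood on other lists, and Sparc on none. Ibsp (ENSMUSG00000029306.8, chromosome 5, 104299171 to 104311469) had 41, 202 and 22 counts, which are 2.07, 6.79 and 0.848 CPM in libraries 1, 2 and 3. Library 2 was 3.28-fold above library 1 and 8.00-fold above library 3. The unadjusted p was 0.00932, but the adjusted p over all genes was 0.366 (edgeR goodness of fit). Dmp1 (ENSMUSG00000029307.7, chromosome 5, 104202613 to 104214102) had 43, 119 and 108 counts, or 2.17, 3.999 and 4.16 CPM, with library 1 lowest. Without library 2 the mean of Ibsp was 1.43 CPM, against 3.24 ± 3.14 CPM over all 3.

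The remaining genes of the bone list fell into several levels. Bglap and Bglap2 encode osteocalcin, the other classical Gla protein of bone, and are near-identical neighbours whose reads the counting could split or lose, so their values are uncertain. Bglap had 26, 211 and 13 counts (1.31, 7.09 and 0.501 CPM) and Bglap2 had 27, 119 and 13 (1.36, 3.999 and 0.501 CPM). Library 2 was thus highest and library 3 lowest for Ibsp, Bglap and Bglap2 alike. The adjusted p for Bglap was 0.0840 (edgeR goodness of fit). Bglap passed the threshold at 0.0233 without library 1, at 0.00742 with a common dispersion and at 5.471e-04 with offsets for GC content and length. It did not pass with DESeq2 size factors (0.0892), unscaled library totals (0.0702) or no filter (0.319), nor without library 2 (0.9996) or library 3 (0.769). Without library 2 the mean of Bglap fell to 0.890 CPM. Sost had at most 3 counts in a library, and Dspp and Fgf23 had none. Mepe was at 0.213 ± 0.185 CPM, Ifitm5, which shares 29.7% of its exonic bases with another gene, at 0.911 ± 0.1601 CPM and Phex at 1.08 ± 0.699 CPM. Of the 11 genes of the list, 6 had a mean of at least 1 CPM, and 3 when library 2 was left out. Omd, which encodes the small proteoglycan osteomodulin, was the only one above 10 CPM, at 4.65, 83.0 and 38.9 CPM. Its spread passed the test (edgeR goodness of fit, adjusted p = 4.433e-04), but not without library 1 (0.436) or without library 2 (0.143). Without library 2 its mean was 21.4 CPM against 42.2 CPM over all 3. Its GC content was 36.1%, and on the log2 scale library 1 differed from the others by -3.61, where the trend with GC content and length was -1.58.

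Upstream sequences of Ibsp, Bglap and Dmp1, the bone matrix genes set against Mgp and Alpl here, are given because RUNX proteins, to which Runx2 belongs, are known to act on bone gene promoters. Each line gives the 250 bases before the RefSeq start, 5′ to 3′ on the gene's strand (RefSeq, GRCm38.p6), with matches to the RUNX core, TGTGGT or its reverse complement ACCACA, in capitals. The windows are chr5:104299037-104299286 (plus strand) for Ibsp, chr3:88384467-88384716 (minus strand) for Bglap and chr5:104202367-104202616 (plus strand) for Dmp1. A further Dmp1 window, before a start upstream, held no match and is not printed.
Ibsp: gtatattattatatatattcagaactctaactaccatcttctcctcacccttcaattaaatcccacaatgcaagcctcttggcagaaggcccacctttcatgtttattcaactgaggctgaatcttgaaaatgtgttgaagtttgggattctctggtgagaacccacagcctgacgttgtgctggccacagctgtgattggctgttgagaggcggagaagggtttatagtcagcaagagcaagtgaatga
Bglap: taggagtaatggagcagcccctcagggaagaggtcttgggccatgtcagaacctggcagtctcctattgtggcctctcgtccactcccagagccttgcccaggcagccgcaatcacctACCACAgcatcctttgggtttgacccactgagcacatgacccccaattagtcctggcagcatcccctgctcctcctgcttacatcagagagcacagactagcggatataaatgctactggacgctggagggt
Dmp1: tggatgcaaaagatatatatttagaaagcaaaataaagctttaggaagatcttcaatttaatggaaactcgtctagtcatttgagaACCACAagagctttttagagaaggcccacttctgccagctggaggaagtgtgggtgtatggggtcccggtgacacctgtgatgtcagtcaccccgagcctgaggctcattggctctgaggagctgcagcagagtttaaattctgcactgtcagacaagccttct
Counted from the start, the motif began at -132 in Bglap and at -164 in Dmp1, and these letters were not in the Ibsp window. Of the 10 members, 7 had an entry; of these, 3 (Dmp1, Enpp1 and Runx2) held the motif in at least 1 window, and 15.9% of the 27025 symbols in the table did. On the bone list, 3 of the 9 genes with an entry (Bglap, Dmp1 and Mepe) held the motif, so the lines printed are not typical of that list. On all role lists, 12 of the 42 genes with an entry did. Counted by window over all symbols, the share was 14.0% of 32851 windows of the same length. A match is a description of the letters and not evidence of binding.

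Cartilage genes were uneven. Sox9 (ENSMUSG00000000567.5, chromosome 11, 112782224 to 112787760) stood at 23.8, 33.0 and 22.8 CPM, a mean of 26.5 ± 5.61 CPM. Acan (ENSMUSG00000030607.7, chromosome 7, 79053483 to 79115099) stood at 47.9, 55.6 and 46.3 CPM, a mean of 49.9 ± 4.96 CPM and the smallest relative spread of the 10 members. Both were highest in library 2, by 1.45-fold over the lowest library for Sox9 and 1.20-fold for Acan. Sox5 (16.7 ± 2.79 CPM) and Sox6 (13.3 ± 3.79 CPM), which encode the partners of SOX9 in cartilage, were also present. SOX9 is also made by astrocytes, whose 6 markers summed to between 496 and 726 CPM. Of these, Gfap and Aqp4 stood at 7.84 ± 1.49 and 1.85 ± 2.24 CPM. The most abundant gene of the astrocyte list was Gjb6 at 552 ± 130 CPM, followed by Slc1a3 at 31.5 ± 7.39 CPM. Their part in the Sox9 level was not tested.

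Of the 16 genes on the cartilage matrix list, 12 had a mean of at least 1 CPM and 7 of at least 10 CPM. The collagen that defines hyaline cartilage was low: Col2a1 had 9, 86 and 18 counts, or 0.455, 2.89 and 0.694 CPM. Col10a1, the collagen of hypertrophic cartilage, had 0, 0 and 10 counts. Matn1 and Matn3 were at 0.312 ± 0.264 and 0.498 ± 0.243 CPM, and Snorc had at most 1 count in a library. In contrast, Chad, which encodes the collagen- and integrin-binding protein chondroadherin, was at 3296, 895 and 384 CPM, 8.58-fold higher in library 1 than in library 3. Per exon length Chad stood at 5361, 1795 and 722 TPM beside 3301, 2799 and 2010.0 TPM for Alpl, so it was the higher of the pair in library 1 and the lower in libraries 2 and 3. Its spread passed the test (edgeR goodness of fit, adjusted p = 0.00504), but not without library 1 (0.318) or without library 3 (0.621). Without library 1 its mean was 659 CPM, against 1525 ± 1555 CPM over all 3. Comp, which encodes a matrix protein of cartilage and tendon, was at 332, 249 and 240 CPM. Col11a1 (82.05 ± 38.8 CPM), Epyc (43.75 ± 6.84 CPM), Col9a3 (29.8 ± 6.10 CPM) and Col9a1 (10.8 ± 7.57 CPM) were the others above 10 CPM besides Acan. In GENCODE M21 an antisense gene covers 40.6% of the exonic bases of Epyc.

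**Figure D3:**
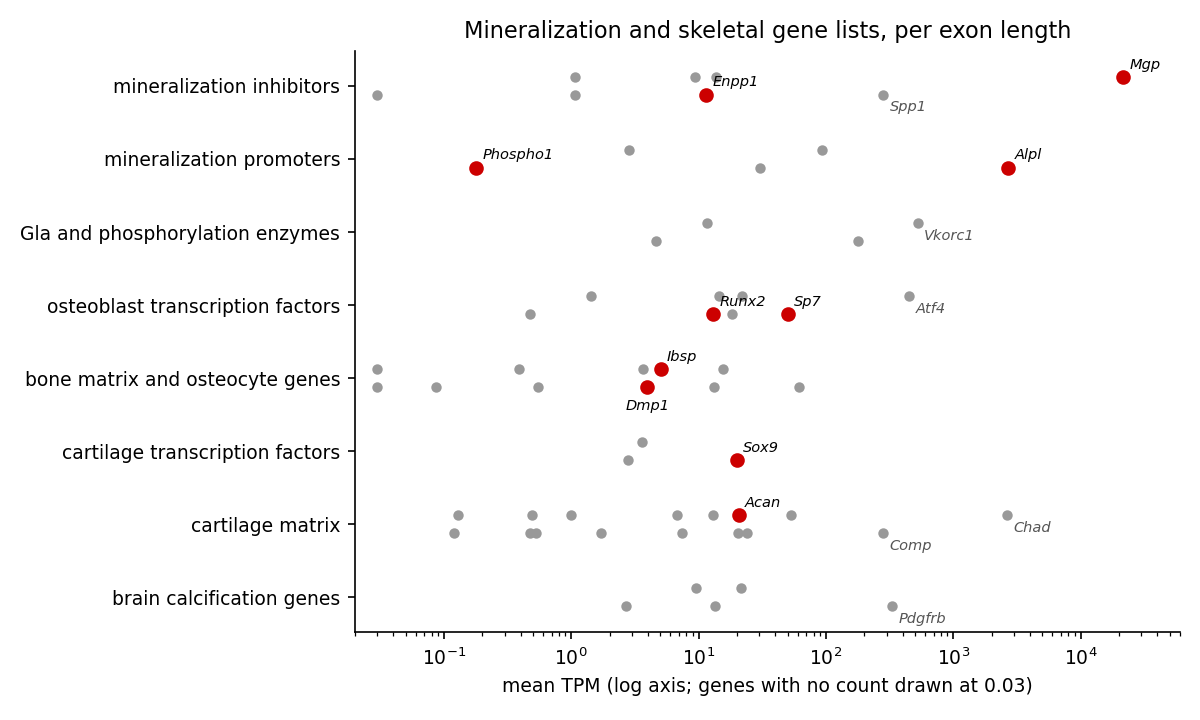
Mean TPM over 3 libraries of each gene on 8 lists, on a log axis. Red points are the 10 members and grey points the other genes, with genes without a count drawn at 0.03. Mgp lies farthest right at 21522.5 TPM, followed by Alpl and Chad, while the genes of the bone matrix list lie at or below 61.5 TPM.

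Genes were compared per exon length, an approximate basis because all annotated exons were counted whether or not these cells use them. The order of mean levels was Mgp at 21522.5 ± 6567 TPM, Alpl at 2703 ± 651 TPM, Sp7 at 50.4 ± 9.02 TPM and Acan at 20.7 ± 3.90 TPM. The values of the 3 libraries did not overlap between neighbours down to this place. Sox9 (20.0 ± 6.02 TPM), Runx2 (13.0 ± 3.72 TPM), Enpp1 (11.5 ± 7.03 TPM), Ibsp (5.03 ± 5.27 TPM) and Dmp1 (3.93 ± 1.54 TPM) followed, and from Acan down to Dmp1 the ranges of neighbours overlapped, so that part of the order was not resolved. Per exon length Sox9 exceeded Runx2 in 3 of 3 libraries all the same, but on the CPM scale Runx2 exceeded Sox9 in every library. The ratio of Mgp to Sp7 per length was 599, 236 and 511 in libraries 1, 2 and 3, to Acan 1551, 572 and 1178, and to Ibsp 9939, 1296 and 17796. On log2(CPM + 1), Mgp exceeded the other 9 members by a median of 8.06.

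Of the 10 members, 9 had a mean of at least 1 CPM, against 30.2% of all gene rows, 7 of at least 10 CPM, against 19.2%, and 2 of at least 100 CPM, against 3.9%. Since the members were picked partly for being present, nothing is read from these shares. On all 8 lists together, 48 of 60 genes had a mean of at least 1 CPM, and the median gene stood at 14.4 CPM against 0.0168 CPM over all gene rows. Of all 46983 gene rows, 21900 had no count in any library, and the lists include the members, so nothing is read from this gap. The median was 18.005 CPM for osteoblast transcription factors, 7.50 CPM for cartilage matrix and 1.08 CPM for the bone matrix list. Osteoclast markers, as a check for bone-resorbing cells, were split: Ctsk was at 444 ± 104 CPM and Acp5 at 73.0 ± 9.13 CPM, whereas Calcr, Ocstamp, Dcstamp and Oscar had means of at most 0.490 CPM.

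The spread of the members between libraries was read from a fit to all 14409 genes that passed the filter. Of the 9 members tested, 0 were called at an adjusted p of 0.05 (edgeR goodness of fit), where 0.437% of all tested genes were called. An unadjusted p under 0.05 was found for 2 of the 9, Ibsp and Enpp1, and for 7.04% of all tested genes. Each of the 8 other settings tried, which included DESeq2 size factors and fits that left out 1 library, also called 0 members. On the lists as a whole 2 of 48 tested genes were called, Omd and Chad. Without library 1, Bglap was the only list gene called, without library 2 Chad and without library 3 Omd.

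The library with the highest Mgp was not the library with the highest Ibsp, Dmp1, Runx2, Sp7, Sox9 or Acan. Library 2, where Mgp was lowest, was the highest library for Runx2, Sp7, Ibsp, Sox9 and Acan, 5 of the 10 members. It was also highest for 6 of the 8 bone list genes with more than 3 counts in a library. Of these 6, Mepe (0.303 and 0.336 CPM) and Ifitm5 (0.960 and 1.04 CPM) differed little between libraries 1 and 2, and Bglap and Bglap2 are near-identical. Mepe and Phex, among the 8, failed the filter and were not tested, so nothing is read from this count. Library 1, where Mgp was highest, was also highest for Alpl, Chad and Comp. Of all tested genes 39.6%, 32.8% and 27.6% were highest in libraries 1, 2 and 3. With 3 libraries no correlation across samples was computed, and for Runx2, Sp7, Sox9 and Acan the differences between libraries were at most 1.47-fold. Mural cells also make Mgp. Their 6 markers summed to 2682, 2380 and 4585 CPM in libraries 1, 2 and 3, led by Acta2 (1624 ± 632 CPM) and Tagln (655 ± 255 CPM). The sum was highest in library 3 and lowest in library 2, while Mgp was highest in library 1 and lowest in library 2. An antisense gene covers 62.4% of the exonic bases of Tagln in GENCODE M21. The part of mural cells in the Mgp level was not tested.

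**Figure D4:**
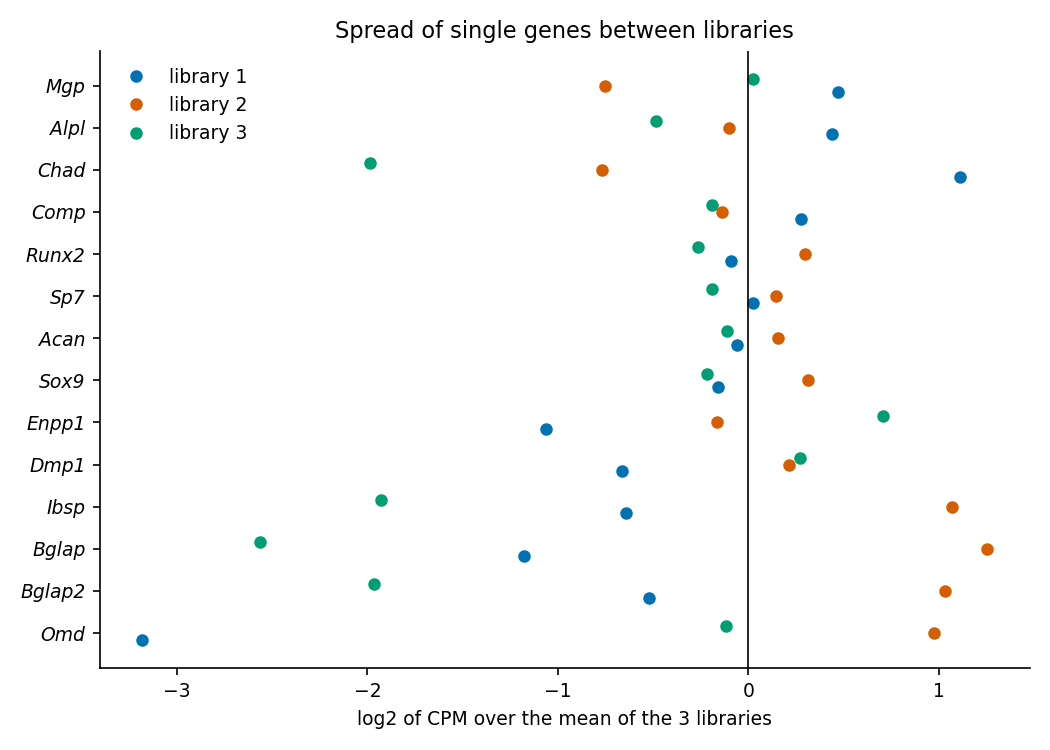
Log2 of the CPM in each library over the mean of the 3 libraries for 14 genes, the members past the filter with Chad, Comp, Bglap, Bglap2 and Omd. Library 2 lies lowest for Mgp and highest for Ibsp, Bglap, Bglap2 and Omd, and Sp7 and Acan stay within 0.2 of their means.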

How the data were processed

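Bulk RNA sequencing of 3 libraries of sorted leptomeningeal cells was used. The deposited values are raw counts per gene, whole numbers with no normalization. Per the submitters' processing notes, HTSeq 0.5.3 and DESeq2 1.22.1 were among the tools and mm10 was the build. The aligner, the annotation and the strand setting were not given in the sources used here. The 5 counter rows without a gene held 45.6%, 39.1% and 39.6% of the reads in libraries 1, 2 and 3 and were left out. GENCODE M21 (GRCm38) held 98.9% of the identifiers and gave coordinates, exon lengths and GC content of the longest transcript.

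Counts were filtered with filterByExpr in edgeR 4.0.16 (R 4.3.3) with its minimum count set to 10, and library sizes were scaled by TMM. The CPM used these sizes, and the TPM divided counts by the union of exons. A single group leaves no contrast for the quasi-likelihood fit, so spread was tested with edgeR's goodness of fit of an intercept-only model at the trended dispersion (2 degrees of freedom, Benjamini-Hochberg, threshold 0.05). In counts simulated for 14409 genes with 200 genes changed 8-fold in 1 library, it recovered 113 with 4 false calls. RNA was amplified from a low input, and without molecular identifiers reads are not separate molecules. The limit of 3 counts therefore covers counting error only.

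The 8 role lists (60 genes) and 8 marker lists were written from general knowledge, and the members and lists were chosen with earlier results of these data known. Symbols of 3 list genes differed in the table and were matched by identifier or synonym. All members were named, with each role list gene above 10 CPM, the undetected bone and cartilage genes, the summed level and 2 leading genes of 7 marker lists, and the 5 genes nearest to Mgp. Of the lists, 1 marker list and 1 role list gene are not reported here. Other list genes named were chosen after their values were seen. Other scalings, filters, dispersions, GC and length offsets, pseudocounts and leaving out each library were tried.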

Additional observations from a re-analysis of the deposited data

Results flagged for a closer look

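Part of the sequencing lies outside the gene rows used above, at levels beyond 3 counts. Averaged over libraries 1, 2 and 3, the unaligned class held 14.66% of the table, the class with several alignments 16.53%, the class outside annotated genes 8.89% and the class ambiguous between genes 1.35%. The unaligned class held 20.1% in library 1, against 10.7% and 13.2% in libraries 2 and 3. Its part in the differences between libraries was not tested. How many reads of Phospho1, whose exons overlap other genes in GENCODE M21, lie in the ambiguous class was not tested.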

How the results depend on the processing

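The count of genes variable between libraries (63) was 138 with no filter, which tests more genes, and 109 with offsets for GC content and length, where the cause was not tested. Leaving out one replicate, and so testing fewer samples, gave 12 to 28. The count of list genes called (2) was 4 with those offsets, adding Bglap and Bglap2, 3 with a common dispersion, adding Bglap, and 1 in each fit without one replicate; this count was chosen after seeing the data. The count of members called was 0 under all 8 alternatives. The Mgp level (8510.0 CPM) was 21522.5 per kilobase of exon, a different scale that favours short genes, and 7062 to 10055 CPM without one replicate. The median of Mgp minus the other members (8.06) was 10.36 per kilobase of exon. Mgp exceeded each other member under every setting, but gaps this wide could hardly reverse, so nothing is read from that. Closer pairs did change order between scales. By mean CPM, Dmp1 (3.45) lay above Ibsp (3.24), Enpp1 (37.5) above Runx2 (37.0) and Runx2 above Sox9 (26.5). Per exon length, Dmp1 (3.93 TPM) lay below Ibsp (5.03 TPM), Enpp1 (11.5 TPM) below Runx2 (13.0 TPM) and Runx2 below Sox9 (20.0 TPM). No paired analysis was possible because there is 1 group. Depth limited the lowest genes: 3 counts are 0.101 to 0.152 CPM.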

Other observations

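Genes whose inherited variants are known to cause calcification of the brain formed a separate list, and all 5 reached a mean of 1 CPM. Pdgfrb, a growth factor receptor of mural cells and fibroblasts, stood at 712, 542 and 536 CPM in libraries 1, 2 and 3, and its ligand gene Pdgfb at 3.61 ± 0.679 CPM (SD, n = 3). The phosphate exporter gene Xpr1 was at 53.5 ± 20.7 CPM, the junction gene Jam2 at 41.6 ± 5.21 CPM and the glycosidase gene Myorg at 20.4 ± 4.06 CPM. Slc20a2, which also belongs to this group of genes, was described with the phosphate transporters. None of the 5 passed the test for variation between libraries (edgeR goodness of fit), where 0.437% of all tested genes did.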
